A study of Mus musculus with 20 samples.

Results

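This account follows 37 genes whose normalised read count in whole mouse adrenal glands was lower in every library labelled Bmal1 KO than in every control library, in females and again in males. They were taken by rule from 47729 genes in the deposited table. The rule asked for a mean of at least 20 normalised reads over the 20 libraries, no overlap between genotypes within either sex, and a difference of the mean log2(value + 1) of -0.3 or lower in each sex. Of 15569 genes with that mean, 46 met it, and 9 of these were left out by name. These 9 were Ptgis, Nr1d1, Nr1d2, Nat8, Bhlhe41, Star, Cml3, Dbp and Cml5, and the names were set with earlier results of these data known. The 37 genes were thus selected on their Bmal1 KO minus control differences, which are given here as a description with no test.

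RNA was sequenced from whole adrenals of 10 females, 5 of them control and 5 Bmal1 KO, and 10 males, 6 of them control and 4 Bmal1 KO. The genotype labels are SCC::Cre_CTRL and SCC::Cre with BMAL1 KO, so both genotypes carry the Cre driver. SCC is the side-chain cleavage enzyme of steroid-producing cells, encoded by Cyp11a1, and the series' title places the deletion in the adrenal cortex. Control females were 1.5 to 3.4 months old and control males 2.9 to 4.7 months old, while Bmal1 KO mice were 2.4 to 3.4 months old (females) or 2.9 to 3.7 months old (males). For the hour of collection, the exons removed and the Arntl allele of the controls, the sources used here give nothing. Nothing in the labels ties libraries of equal age to separate litters, so spread between libraries may in part be technical.

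BMAL1, the product of Arntl, pairs with CLOCK and binds E-box sequences to switch on genes in a daily rhythm. Among its direct targets are the Period and Cryptochrome repressors, the nuclear receptors REV-ERB alpha and beta, and the transcription factor DBP, which passes rhythm on through D-box sequences. The adrenal cortex makes aldosterone in its outer zona glomerulosa and glucocorticoids in the zona fasciculata, and its clock shapes the daily course of glucocorticoid output. The medulla inside it makes catecholamines and is not a site of SCC expression.

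Libraries held 13421985 to 26742820 reads, the lowest being control male 4. Arntl itself, summed over the whole gene, read 618 ± 147 in female controls (SD, n = 5) against 905 ± 71.8 with Bmal1 KO (n = 5), and 663 ± 238 (n = 6) against 923 ± 69.8 (n = 4) in males. A sum over all exons checks nothing about a deleted part, and directions rest on the labels. Dbp, a BMAL1 target, ran from 1316.5 to 3103 in control libraries and from 319.97 to 554 in Bmal1 KO libraries. In bulk tissue, fewer cells of a type and less RNA per cell cannot be told apart. Summed over 12 chromaffin cell markers, the medulla gave 153792 to 205861 normalised reads in control females, 137554 to 178070.1 in Bmal1 KO females, 116701 to 272950.0 in control males and 150562 to 189586 in Bmal1 KO males. Of 6 kidney markers, Slc34a1 and Umod were at 0 in all 20 libraries, and all 6 together summed to between 1.84 and 10.99 normalised reads per library.

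Of the 15569 genes with a mean of at least 20, 57 (0.366%) had every Bmal1 KO library below every control library in both sexes, before the size of the difference was asked for. Among the 37 members the difference ran from -2.59 to -0.31 on the log2 scale in females, with a median of -0.62, and from -3.83 to -0.31 in males, with a median of -0.765. Over all genes with that mean the medians were 0.00 and -0.01. Differences of -1 or lower in both sexes were found for 11 members: Trim40, Gulo, Samd5, Cdhr5, mt-Tw, Hpcal4, 1700112E06Rik, Sord, Pdzrn3, Lefty1 and 6430548M08Rik. The members' mean counts over the 20 libraries ran from 30.9 to 4928 with a median of 344, and 6 lay under 100. These counts are not divided by gene length, so levels are compared within a gene and not between genes.

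**Figure D1:**
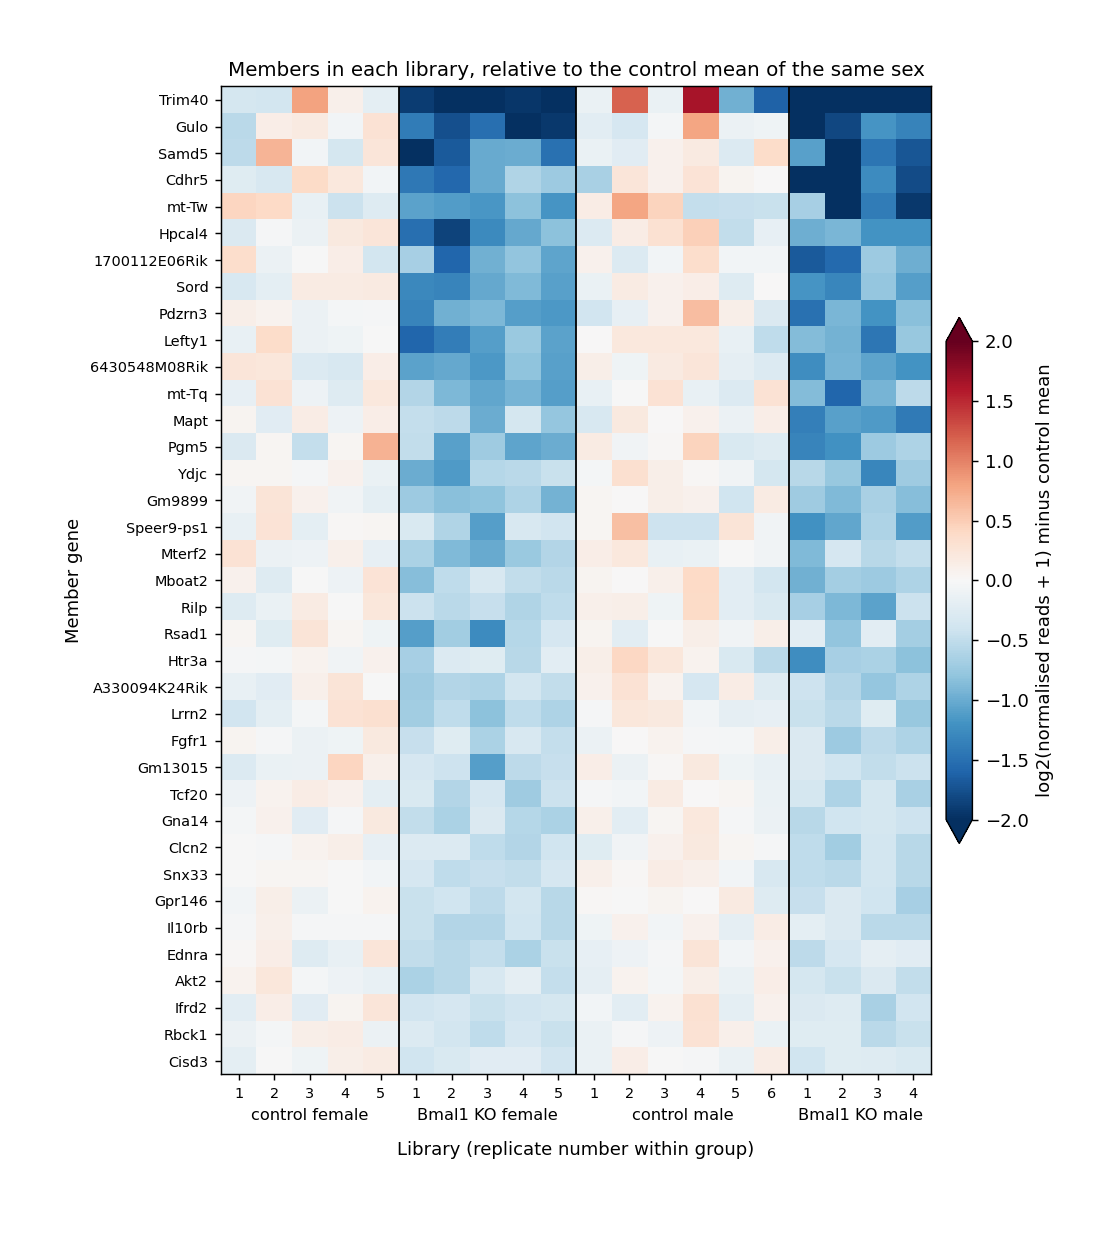
Each cell gives the log2(normalised reads + 1) of 1 of the 37 genes in 1 of the 20 libraries, minus the mean of the control libraries of the same sex; colours saturate at -2 and 2. Bmal1 KO columns are blue for all rows, from -0.31 in both sexes for Cisd3 at the bottom to -2.59 and -3.83 for Trim40 at the top, and control columns scatter around 0.

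Just inside the size limit were Cisd3 (-0.31 in both sexes), Ednra (-0.52 in females and -0.32 in males), Rbck1 (-0.38 and -0.37), Ifrd2 (-0.38 and -0.39) and Htr3a (-0.39 and -0.84). Among those just outside it were Slc22a5 (-0.29 and -0.39), Ndufb6 (-0.29 in both), Rpl14 (-0.25 and -0.28) and Adcy9 (-0.23 and -0.25), all of them without overlap. By mean count, Trim40 at 30.9, 1700112E06Rik at 41.4, mt-Tw at 46.0, Speer9-ps1 at 47.5 and Samd5 at 66.9 were nearest inside. Outside it were ENSMUSG00000108366 at 17.1, the somatostatin receptor gene Sstr5 at 13.6 and ENSMUSG00000107008 at 9.36, the 3 genes that a mean of 5 would have added. The smallest gaps between genotypes belonged to Rsad1 (0.0045 on the log2 scale), Pgm5 (0.0137), Ednra (0.0226), Akt2 (0.0263) and Il10rb (0.0268), while Tspan4, Rian, Wwc1, Sez6l2 and Cxcr4 missed, with gaps of -0.0064 to -0.0191.

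The 37 genes lay on 18 chromosomes, the mitochondrial one included, with 4 on chromosome 11 and at most 3 on any other. GENCODE M21 calls 31 of them protein coding (83.8%, against 88.4% of genes with a mean of at least 20). The other 6 are 2 mitochondrial transfer RNA genes, 3 other non-coding transcripts (Gm9899, Speer9-ps1 and A330094K24Rik) and the processed pseudogene Gm13015. Median gene length was 16320 bp, against 21714 bp over genes with that mean. Speer9-ps1 has no symbol in the deposited table (ENSMUSG00000107956) and is named from GENCODE, and 1700112E06Rik is listed as Lrmda by RefSeq.

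RefSeq windows of 300 bases, from 250 before to 50 after a transcription start (GRCm38.p6), were held for 25 members, 34 windows in all. The perfect E-box CACGTG, the letters CLOCK and BMAL1 bind, was found in 3 of the 34 windows (8.82%) and in 7.15% of 32851 windows of all genes. The D-box, searched as TTATGTAA, TTATGCAA and TTACGTAA, was found in 1 of 34 (2.94%), against 1.78%. The REV-ERB and ROR element TAGGTCA was in 0 of 34, against 2.61%, the cyclic AMP response element TGACGTCA in 0 of 34, against 1.79%, and the NR5A1 element CAAGGTCA in 1 of 34, in front of Rilp, against 1.56%. Both strands were searched, and windows of 1 gene can overlap each other. The 4 windows below are shown because they hold the clock letters, which are in capitals: Gpr146 (chr5:139380389-139380688, E-box from base -1 before the start), 6430548M08Rik (chr8:120113902-120114201, E-boxes from -207 and -60), 1700112E06Rik (chr14:22019462-22019761, E-box from base 4 of the transcript) and Hpcal4 (chr4:123183254-123183553, D-box from -41), all on the plus strand and written 5′ to 3′.
Gpr146: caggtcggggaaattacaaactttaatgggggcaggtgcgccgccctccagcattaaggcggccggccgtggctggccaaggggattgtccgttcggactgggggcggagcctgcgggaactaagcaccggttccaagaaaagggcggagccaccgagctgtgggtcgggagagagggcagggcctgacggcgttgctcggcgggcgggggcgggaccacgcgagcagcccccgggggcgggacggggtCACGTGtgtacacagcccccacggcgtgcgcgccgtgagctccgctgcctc
6430548M08Rik: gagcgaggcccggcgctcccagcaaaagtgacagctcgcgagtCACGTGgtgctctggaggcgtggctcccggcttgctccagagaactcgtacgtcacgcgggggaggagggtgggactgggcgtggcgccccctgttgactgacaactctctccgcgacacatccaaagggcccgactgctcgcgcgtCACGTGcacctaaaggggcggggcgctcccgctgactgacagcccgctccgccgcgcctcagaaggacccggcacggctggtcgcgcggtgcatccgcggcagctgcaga
1700112E06Rik: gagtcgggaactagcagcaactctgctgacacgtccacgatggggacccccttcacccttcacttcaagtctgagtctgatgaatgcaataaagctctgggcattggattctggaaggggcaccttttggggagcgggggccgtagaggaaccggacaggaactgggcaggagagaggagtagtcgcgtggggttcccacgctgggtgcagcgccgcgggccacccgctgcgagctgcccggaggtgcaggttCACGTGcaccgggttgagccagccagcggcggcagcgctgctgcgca
Hpcal4: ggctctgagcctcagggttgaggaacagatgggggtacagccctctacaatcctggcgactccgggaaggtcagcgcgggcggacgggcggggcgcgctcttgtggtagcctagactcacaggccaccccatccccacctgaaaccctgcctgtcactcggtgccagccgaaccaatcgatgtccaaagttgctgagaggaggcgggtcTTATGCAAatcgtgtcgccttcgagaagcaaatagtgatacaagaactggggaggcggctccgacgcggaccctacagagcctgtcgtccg
These genes stood at -0.46, -1.03, -1.01 and -1.30 in females, in that order, and at -0.45, -1.10, -1.24 and -1.07 in males. A match is a string of letters and not a measured binding site, and the shares are close to those of all windows.

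Signalling proteins form the group nearest to the hormone biology of the gland. Lefty1 (chr1:180935022-180938400, plus strand) encodes a secreted antagonist of Nodal, a ligand of the TGF-beta family. Its normalised read count was 256, 365, 262, 267 and 281 in the 5 control females and 93.4, 108, 132, 169 and 134 in the 5 Bmal1 KO females. Control males ran from 286 through a median of 439 to 471, and the 4 Bmal1 KO males read 223, 210.5, 149 and 239. All 9 Bmal1 KO libraries lay below all 11 controls, whichever the sex. The differences were -1.18 in females and -1.003 in males. Fgfr1 (chr8:25513654-25575718, plus strand), a receptor tyrosine kinase for fibroblast growth factors, gave 2477, 2344, 2198, 2245 and 2728 in control and 1728, 2024, 1545, 1912 and 1713 in Bmal1 KO females. Among males, controls spanned values from 1608 through a median of 1727 to 1902, and Bmal1 KO libraries gave 1427, 1053, 1209.9 and 1141. Females stood higher in either genotype, and Bmal1 KO females overlapped with control males. The Fgfr1 differences were -0.43 and -0.54.

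Htr3a (chr9:48899213-48911099, minus strand), a subunit of the serotonin-gated cation channel, counted 181, 178, 193, 175 and 194 in control females and 116, 152, 155, 125 and 159 in Bmal1 KO females. Control males extended from 264 through a median of 409.6 to 507, against 162, 242, 245 and 217 in Bmal1 KO males. Males were higher in either genotype, and the Bmal1 KO males spanned the control females. The difference was -0.39 in females and -0.84 in males. Clcn2, a chloride channel of zona glomerulosa cells, read 2064 ± 149.8 (SD, n = 5) in control and 1558 ± 149 (n = 5) in Bmal1 KO females, and 1416 ± 143 (n = 6) and 978 ± 92.9 (n = 4) in males. Gna14, an alpha subunit of the Gq class of G proteins, stood at 1381 ± 148 and 959 ± 98.5 in females and 1440.3 ± 152 and 1065 ± 61.6 in males. No Bmal1 KO library of Gna14 reached any control library of either sex.

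Ednra, the endothelin receptor type A, differed by -0.52 in females and -0.32 in males, and Gpr146, an orphan G protein-coupled receptor, by -0.46 and -0.45. Il10rb, a subunit shared by several cytokine receptors, stood at 6262 ± 237 (SD, n = 5) and 4392 ± 274 (n = 5) in females and at 4999 ± 425 (n = 6) and 3820.0 ± 458 (n = 4) in males. Akt2, a kinase of insulin signalling, stood at 4854 ± 526 and 3605 ± 467 in females and at 3527 ± 319 and 2673 ± 165 in males. The differences of these 4 genes lay between -0.52 and -0.32.

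Metabolic enzymes included the second and eighth lowest members. Gulo (chr14:65986786-66009207, minus strand) encodes gulonolactone oxidase, which carries out the last step of vitamin C synthesis and is best known from liver. It read 189, 304, 315, 265 and 338 in control females and 105, 80.7, 96.3, 61.7 and 71.8 in Bmal1 KO females. In control males it ranged from 349.5 through a median of 409.9 to 765, and in Bmal1 KO males it read 87.7, 124, 194 and 175. Bmal1 KO male 3, at 194, was a little above control female 1, at 189, and every other Bmal1 KO library lay below every control. The differences were -1.75 and -1.66, or 0.297 and 0.316 times the control level on the log2(value + 1) scale. Sord (chr2:122234749-122265340, plus strand), sorbitol dehydrogenase, which turns sorbitol into fructose, read 1113, 1215, 1551, 1545 and 1570.3 in control females and 567, 552, 680.1, 749.7 and 650.4 in Bmal1 KO females. Control males ranged from 1778 through a median of 2194 to 2378 and Bmal1 KO males read 932, 856, 1243 and 984. Bmal1 KO male 3 of this gene too lay above the lowest control females. Sord differed by -1.12 in females and -1.09 in males.

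Pgm5 (chr19:24683016-24861855, minus strand) is related to phosphoglucomutase but is known as a protein of cell adhesion sites. It read 361, 450.2, 316, 449 and 710.03 in control and 313, 206, 268, 209.9 and 221 in Bmal1 KO females. Its control males spread from 403 through a median of 493 to 676, and its Bmal1 KO males read 199, 215, 301 and 323. Bmal1 KO female 1, at 313, and control female 3, at 316, nearly touched. The differences were -0.87 and -0.97. Mboat2 (chr12:24830879-24964397, plus strand), an acyltransferase of membrane phospholipids, read 254, 199.9, 237, 221 and 287 in control and 132, 167, 191, 168 and 163 in Bmal1 KO females. Control males went from 290.5 through a median of 384 to 494, against 193, 235, 225 and 245 in Bmal1 KO males. Of the 4 Bmal1 KO males, 3 lay among the control females. Mboat2 differed by -0.54 and -0.74.

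Proteins of the cytoskeleton, of cell contact and of neurons made up a further group. Mapt (chr11:104231390-104332090, plus strand) encodes the microtubule-binding protein tau. Its counts were 4087, 3341, 4329, 3648 and 4301 in control females and 2824, 2737, 1975, 3058 and 2286 in Bmal1 KO females. Control males covered values from 1501 through a median of 1942 to 2147, and Bmal1 KO males gave 730.1, 882, 857 and 702. Females were higher in either genotype, and 4 of 5 Bmal1 KO females exceeded every control male. The difference was -0.62 in females and -1.25 in males. Cdhr5 (chr7:141269083-141276786, minus strand), a cadherin-like protein that links the tips of microvilli in gut and kidney, counted 225, 213, 348, 309 and 257 in control and 98.1, 88.4, 132, 175 and 160.1 in Bmal1 KO females. Male controls reached from 146 through a median of 242 to 279, with Bmal1 KO males at 31.9, 38.02, 95.6 and 65.8. Control male 1, at 146, lay apart from the other control males and within the Bmal1 KO females. Cdhr5 differed by -1.07 in females and by -2.11 in males.

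Lrrn2 (chr1:132880273-132940005, plus strand), a leucine-rich repeat membrane protein of neurons, counted 201, 228, 254, 322 and 328 in control and 162, 184, 148, 184 and 170.2 in Bmal1 KO females. For males the controls were from 380.1 through a median of 418 to 505 and the Bmal1 KO libraries 315, 295, 364 and 254. Bmal1 KO males and control females overlapped. The differences were -0.63 and -0.50. Hpcal4 (chr4:123183227-123194701, plus strand), a calcium sensor of the visinin-like family, counted 129, 156, 147, 182 and 187 in control and 55.1, 43.2, 64.8, 77.4 and 89.2 in Bmal1 KO females. Males gave controls from 149 through a median of 211 to 294 and Bmal1 KO values of 107, 111, 91.2 and 91.7. All Bmal1 KO libraries were below all controls of either sex. Hpcal4 differed by -1.30 and -1.07.

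**Figure D2:**
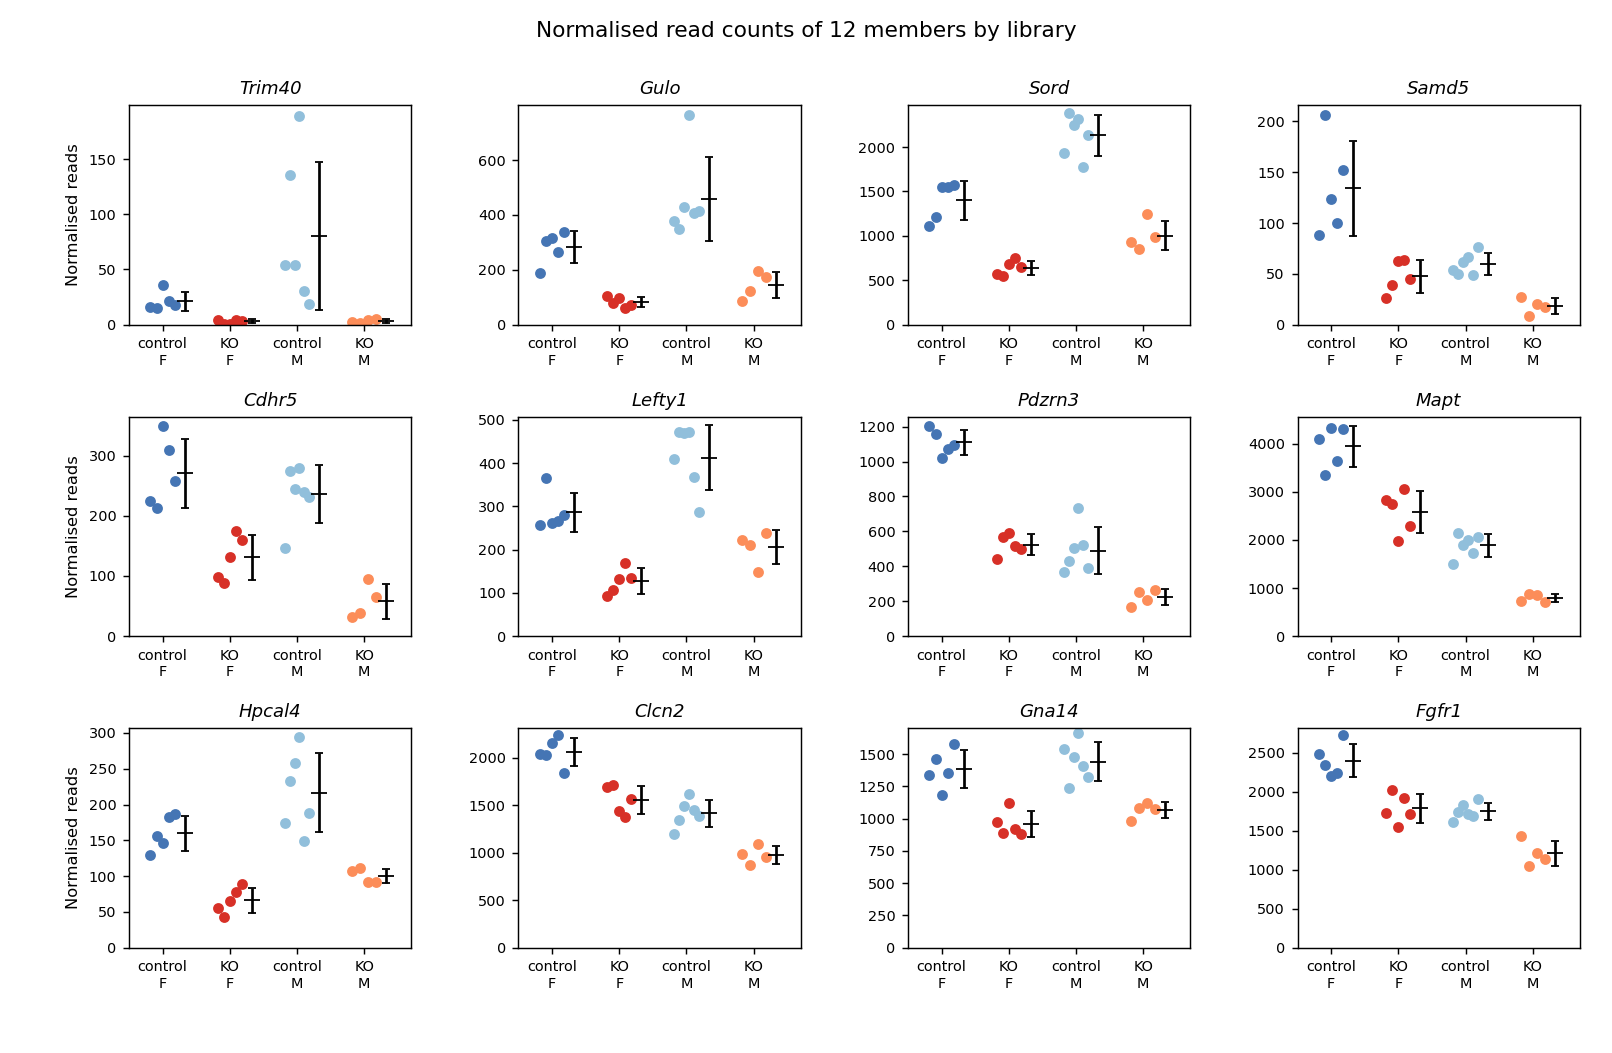
Normalised reads of 12 members, with 1 point per library and axes from 0; F is female, M male, and the dash and bar beside each group are its mean and SD (n = 5, 5, 6 and 4 from left to right). Trim40 is near 0 in both Bmal1 KO groups, and for Pdzrn3 and Mapt the Bmal1 KO females stand above or level with the control males.

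Ubiquitin ligases and proteins of membrane traffic held the lowest member. Trim40 (chr17:36881598-36890123, minus strand) is a tripartite-motif protein of a family of ubiquitin ligases. Its counts were 15.6, 15.5, 36.0, 21.7 and 17.5 in control females and 4.67, 0.961, 0.900, 4.49 and 3.68 in Bmal1 KO females. Control males were the most spread group, from 18.8 through a median of 54.4 to 189, and Bmal1 KO males read 2.39, 1.85, 4.34 and 5.40. Every Bmal1 KO library of Trim40 held between 1 and 5 reads before scaling, at or near the floor of 3 reads taken for detection. The differences of -2.59 and -3.83 therefore move with the pseudocount, from -3.05 at 0.1 to -1.71 at 5 in females and from -4.17 to -2.97 in males. Pdzrn3 (chr6:101149609-101377897, minus strand), a ubiquitin ligase with PDZ domains, counted 1205, 1157, 1020.0, 1072 and 1093 in control females and 441, 569, 594, 514 and 501 in Bmal1 KO females. Control males extended from 368 through a median of 466 to 736, with Bmal1 KO males at 169, 252, 207 and 266. Bmal1 KO females fell within the control males' span. Pdzrn3 differed by -1.09 and -1.11.

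Rilp (chr11:75510094-75513168, plus strand), an adaptor that moves lysosomes along microtubules, counted 81.1, 88.6, 109, 96.9 and 114 in control and 71.9, 66.3, 70.2, 64.0 and 68.1 in Bmal1 KO females. Its male controls were from 67.4 through a median of 84.1 to 109, and its Bmal1 KO males 52.6, 44.5, 39.1 and 61.5. Groups were narrow, and control male 6, at 67.4, was the single control within the Bmal1 KO females. Rilp differed by -0.51 and -0.76. Rbck1, a subunit of the complex that builds linear ubiquitin chains, differed by -0.38 and -0.37. Snx33, a sorting nexin of endocytosis, stood at 654 ± 19.3 (SD, n = 5) and 486 ± 28.8 (n = 5) in females and at 897 ± 101 (n = 6) and 635 ± 36.5 (n = 4) in males, a difference of -0.43 and -0.49.

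Genes of mitochondria were of different kinds. The genes mt-Tw (chrM:4950-5016, plus strand) and mt-Tq (chrM:3772-3842, minus strand) encode the mitochondrial transfer RNAs for tryptophan and glutamine. mt-Tw counted 86.3, 84.5, 57.6, 47.1 and 53.5 in control females and 29.9, 28.8, 27.9, 35.9 and 27.6 in Bmal1 KO females. Male controls gave from 40.0 through a median of 51.6 to 97.8 and Bmal1 KO males 35.1, 12.98, 20.6 and 14.0. mt-Tq counted 119.6, 164, 125, 112 and 155 in control and 88.8, 71.1, 64.8, 69.6 and 61.6 in Bmal1 KO females. Both genes kept all Bmal1 KO libraries below all controls of either sex. Male values of mt-Tq were from 128 through a median of 147 to 189 in controls and 84.5, 51.0, 80.4 and 107 in Bmal1 KO. The differences were -1.07 and -1.502 for mt-Tw and -0.91 and -0.98 for mt-Tq. These genes are 67 and 71 bp long, mt-Tw overlaps mt-Nd2 on its own strand and mt-Tq overlaps mt-Ti on the other, so reads of neighbouring transcripts could be counted there.

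Mterf2 (chr10:85119433-85128027, minus strand), of the mitochondrial transcription termination factor family, counted 353, 267, 270.1, 309 and 257 in control females and 187, 157, 143, 173 and 193 in Bmal1 KO females. Among males it ran from 339 through a median of 365 to 433 in controls and read 202, 296, 254 and 268 in Bmal1 KO. Bmal1 KO males reached into the control females' range. The differences were -0.77 and -0.57. Rsad1 (chr11:94539798-94549255, minus strand), a radical S-adenosylmethionine domain protein, counted 323, 268, 378, 325 and 297 in control and 148, 195, 131, 213 and 249 in Bmal1 KO females. Its control males were from 421 through a median of 494 to 527 and its Bmal1 KO males 419, 281, 418 and 302. The highest Bmal1 KO males, at 419 and 418, lay next to control male 2, at 420.5. Rsad1 differed by -0.79 and -0.47. Cisd3, a small iron-sulfur protein of mitochondria, was the member with the smallest difference, at 982 ± 95.8 (SD, n = 5) and 792 ± 45.5 (n = 5) in females and 1056 ± 90.5 (n = 6) and 852 ± 40.5 (n = 4) in males.

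Of the named genes left, Samd5 (chr10:9622936-9675208, minus strand), a sterile alpha motif domain protein, counted 88.4, 206, 123, 101 and 152 in control females and 26.2, 39.4, 63.0, 64.0 and 45.1 in Bmal1 KO females. In males the controls were from 48.5 through a median of 57.7 to 76.2, and the Bmal1 KO libraries 27.1, 8.35, 20.6 and 17.3. Of the Bmal1 KO females 2, at 63.0 and 64.0, stood within the control males. The differences were -1.48 and -1.73. Ydjc (chr16:17144621-17160701, plus strand) counted 137, 137, 131, 141 and 121 in control and 66.3, 60.5, 90.0, 92.03 and 97.5 in Bmal1 KO females. Control males were from 91.7 through a median of 116 to 146, Bmal1 KO males 78.9, 68.6, 46.7 and 71.2. Control male 6, at 91.7, lay below 2 of the Bmal1 KO females. Ydjc differed by -0.73 and -0.83. Tcf20, a transcriptional coregulator, differed by -0.48 and -0.49, and Ifrd2 by -0.38 and -0.39.

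Members without an official name or outside the coding genes complete the set. 6430548M08Rik stood at 3479.7 ± 641 (SD, n = 5) and 1688 ± 158 (n = 5) in females and at 2529 ± 365 (n = 6) and 1171 ± 112 (n = 4) in males, without overlap across sexes. Gm20388 covers it on the same strand. 1700112E06Rik differed by -1.01 and -1.24, A330094K24Rik by -0.56 and -0.60, and the pseudogene Gm13015, 204 bp long, by -0.56 and -0.40. Reads of a pseudogene may come from its parent gene. Gm9899 (chr5:30573987-30588619, minus strand) stood at 753 ± 94.1 and 435 ± 36.8 in females and 609 ± 78.5 and 353 ± 26.9 in males. It overlaps the potassium channel gene Kcnk3 on the other strand, and since strand use in counting is not given, reads of the pair cannot be told apart. Across all 37 genes, 7 kept every Bmal1 KO library below every control of either sex: Trim40, mt-Tw, Hpcal4, Lefty1, 6430548M08Rik, mt-Tq and Gna14. The rule had already set the genotypes apart within each sex, and the share over all genes was not counted. The 7 are thus a description.

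Female and male differences lay within 0.2 of each other on the log2 scale for 25 of the 37 genes, and the rule bounds both from above. The male difference was the lower one for 22 genes and the female for 15. Furthest apart, with males lower, were Trim40 (-2.59 in females and -3.83 in males), Cdhr5 (-1.07 and -2.11), Mapt (-0.62 and -1.25), Speer9-ps1 (-0.55 and -0.996) and Htr3a (-0.39 and -0.84). With females lower they were Rsad1 (-0.79 and -0.47), Hpcal4 (-1.30 and -1.07), Ednra (-0.52 and -0.32), Mterf2 (-0.77 and -0.57) and Lefty1 (-1.18 and -1.003). Trim40 and Speer9-ps1 are low-count genes, and at a pseudocount of 5 the male difference of Speer9-ps1 was -0.67. Whether the sexes differ in these effects was not tested, since both effects chose the genes.

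**Figure D3:**
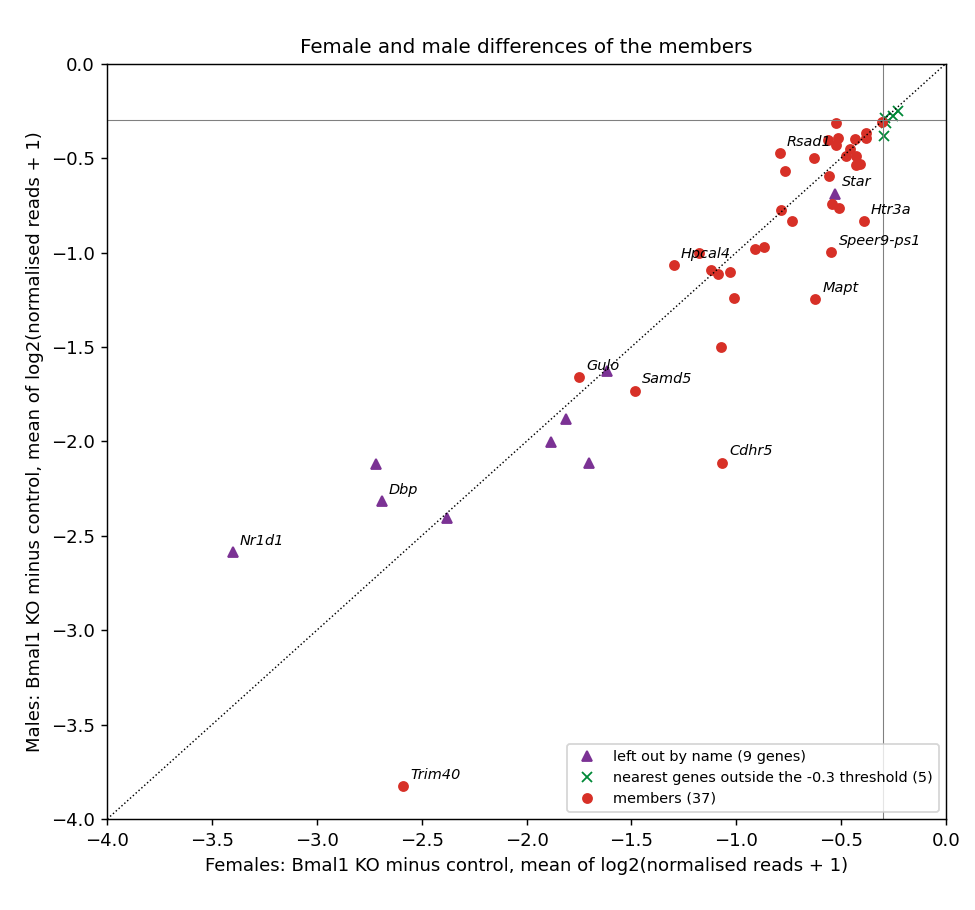
Difference of the mean log2(normalised reads + 1), Bmal1 KO minus control, in females (horizontal axis) and males (vertical axis) for the 37 members, the 9 genes left out by name and the 5 nearest genes outside the limit; grey lines mark -0.3 and the dotted line equal differences. Most members lie near the dotted line, Trim40 (-2.59 and -3.83) and Cdhr5 (-1.07 and -2.11) lie below it, and Nr1d1 (-3.40 and -2.59) lies above it.

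The difference between the sexes, averaged over genotypes, was not used by the rule and could be tested. limma-trend, with Benjamini-Hochberg adjustment over 26612 genes, called 30 of the 37 members (81.1%), against 38.3% of all genes tested and 51.0% of 15568 genes with a mean of at least 20. Of these 16 were higher in females (18.4% of all genes tested) and 14 higher in males (19.9%). Members were chosen for groups that do not overlap, which favours genes of small spread, and small spread also favours a call by sex. Speer9-ps1 reached the mean of 20 only through females (86.5, against 8.502 in males) and Trim40 only through males (49.7, against 12.1 in females), so the sex differences of this pair are a description. Among the other 35 members 29 were called (82.9%), 15 higher in females and 14 in males. The median size of the sex difference was 0.49 for these 35 and 0.25 for genes with a mean of at least 20. The sign was the same in both genotypes for 37 of 37, Speer9-ps1 and Trim40 included. The share of all genes with the same sign was not counted, so the 37 are a description.

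Higher in females by the most was Speer9-ps1, which read 102 ± 13.9 (SD, n = 5) in female and 10.9 ± 3.41 (n = 6) in male controls, and 70.7 ± 14.7 (n = 5) and 4.86 ± 1.13 (n = 4) in Bmal1 KO. The female minus male difference was 3.38 ± 0.16 (SE), and every female library exceeded every male one, as the way it was admitted favours. Of the members tested, Mapt differed by 1.38 ± 0.08 (SE, limma adjusted p = 5.2e-11), Samd5 by 1.24 ± 0.21 (7.32e-05) and Pdzrn3 by 1.23 ± 0.11 (1.67e-08). In controls of Mapt the females read 3341 to 4329 and the males 1501 to 2147, apart from each other. Cdhr5 (0.72 ± 0.19), Clcn2 (0.61 ± 0.06), 1700112E06Rik (0.56 ± 0.16), Fgfr1 (0.51 ± 0.06), 6430548M08Rik (0.49 ± 0.09) and Akt2 (0.44 ± 0.06) followed. The other 6 called higher in females were Ifrd2, Rilp, Gm9899, Tcf20, Il10rb and Rbck1.

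Higher in males were Htr3a, with a female minus male difference of -0.83 ± 0.11 (SE, adjusted p = 4.81e-06, limma), Lrrn2 (-0.78 ± 0.10), Rsad1 (-0.78 ± 0.11), Gulo (-0.71 ± 0.16), A330094K24Rik (-0.66 ± 0.10), Sord (-0.63 ± 0.09) and Lefty1 (-0.60 ± 0.12). Gulo read 189 to 338 in control females and 349.5 to 765 in control males. Gm13015 (-0.59 ± 0.11), Mboat2 (-0.55 ± 0.10) and Hpcal4 (-0.52 ± 0.14) came next, and Mterf2, Snx33, Gpr146 and Ednra completed the 14. Trim40 differed by -0.90 ± 0.37 (limma adjusted p = 0.0621), a description, as it was admitted through its male values. Of the members tested, mt-Tw, Ydjc, Cisd3, Gna14, Pgm5 and mt-Tq did not pass.

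Within controls the sexes did not overlap for 17 members (45.9%), against 20.7% of genes with a mean of at least 20. Within Bmal1 KO they did not overlap for 22 (59.5%), against 29.7%. The rule favours genes of small spread, and small spread favours both of these counts, so they are a description. For 14 members they did not overlap in either genotype, a description, as the share over all genes was not counted. Speer9-ps1 is in each of these counts. Over all 10 female and 10 male libraries, with genotypes mixed, the sexes were apart for 1 member, Speer9-ps1, against 11.6% of genes with that mean. The rule set the genotypes apart within each sex, which widens the span of each sex and favours overlap here. This comparison with all genes therefore shows nothing about the members. Age moves with sex here, as males were older. With age in months as a covariate, 29 members were called, Speer9-ps1 included (14 higher in females and 15 in males). Cdhr5, Rilp and Rbck1 no longer passed (limma adjusted p = 0.128, 0.0743 and 0.161), and mt-Tw and Cisd3 did (0.00505 and 0.0411). Rbck1 also failed when any 1 of Bmal1 KO males 3 and 4, Bmal1 KO female 1 and control females 3 and 4 was left out. The gene mt-Tw passed without Bmal1 KO male 1. The call of Trim40 changed under DESeq2 and when any 1 of control males 5 and 6, control female 3 and Bmal1 KO female 1 was left out. Trim40 was admitted through its male values, so its call is a description and no support.

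**Figure D4:**
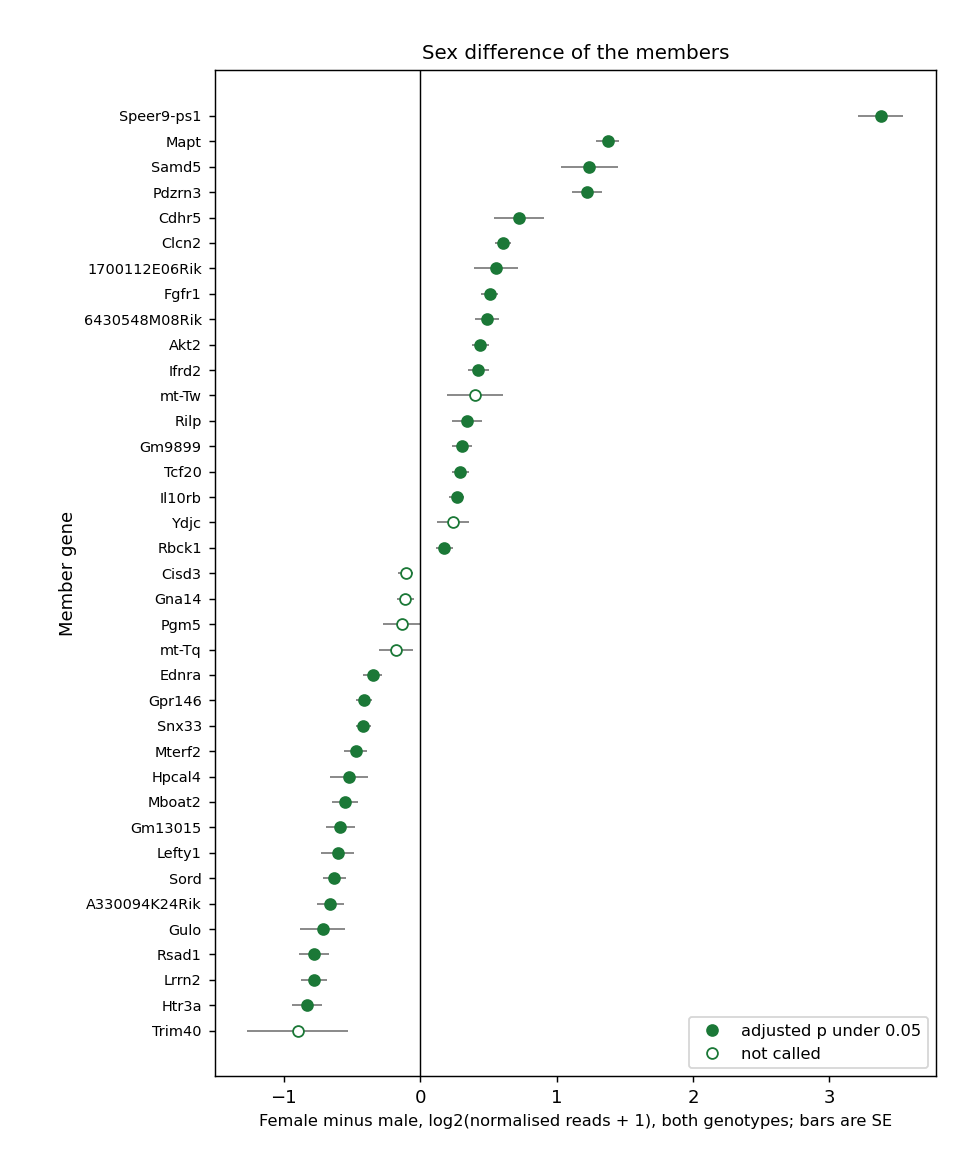
Female minus male difference of log2(normalised reads + 1), averaged over genotypes, for the 37 members, with SE bars; filled points passed limma at an adjusted p under 0.05. Speer9-ps1 stands at 3.38, Mapt at 1.38 and Htr3a at -0.83, and 30 of 37 points are filled. Speer9-ps1 was admitted through its female and Trim40 through its male values, so these points are a description.

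Age and the level of Dbp were followed next. The slope on age in months was called for 0 of 37 members and for 0.0% of 26612 genes by limma (edgeR 0 members, DESeq2 0). At an unadjusted p under 0.05 there were 2 members, mt-Tw and Cdhr5 (5.41%, against 7.29% of all genes). In the 11 control libraries, with sex as a covariate, the slope on log2 Dbp was called by limma for 0 members and for 0.0% of 24593 genes, and by edgeR for 0. At an unadjusted p under 0.05 there were 5 members (13.5%, against 6.39%). These were Lefty1, with a slope of 0.86 ± 0.17 (SE, limma adjusted p = 0.535), Htr3a (0.79 ± 0.21), Snx33 (0.44 ± 0.12), Trim40 (2.53 ± 0.79) and 6430548M08Rik (0.60 ± 0.21). DESeq2 called 32 genes in all, of which Lefty1 was the 1 member (adjusted p = 0.00434). With age as a covariate, members at an unadjusted p under 0.05 by limma also included Gulo (0.97) and Pgm5 (1.01), and none passed adjustment. Slopes without that covariate were positive for 29 members and negative for 8, with a median of 0.13 against -0.01 over all genes tested. The share of all genes with a positive slope was not counted, and members share the same libraries, so these counts are a description.

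Chromaffin cells were followed through the mean level of the 12 medulla markers. Its slope, a test added after the data were seen, was called by limma for 0 of 37 members, by edgeR for 0 and by DESeq2 for 0, against 0.575% of 26612 genes by limma. Speer9-ps1 alone had an unadjusted p under 0.05 (2.70% of members, against 8.45%). With the medulla level as a covariate the members' Bmal1 KO minus control differences had medians of -0.61 in females and -0.79 in males. These are the values that chose the members, so they are a description and support nothing about the medulla.

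Deviations of the libraries from their group means show how far members move together apart from genotype and sex. Over 666 pairs of members and 20 libraries the median correlation was 0.07, against -0.001 for genes with a mean of at least 20. At 0.5 or higher were 31 pairs and at -0.5 or lower 4, and the share of all gene pairs there was not counted. The closest pairs were Lefty1 with Ydjc (0.80), Cdhr5 with Sord (0.77), Pgm5 with Gna14 (0.76) and Gulo with Pgm5 (0.69). Pgm5 also went with Ednra (0.675), and Mboat2 with Htr3a (0.665). A330094K24Rik and Ednra were the most opposed (-0.745), before Samd5 and Mterf2 (-0.73). These values share the depth and scaling of the same libraries and are a description.

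Within 10 kb of 24 members lay 36 other genes with a mean of at least 20, and their median differences were -0.12 in females and -0.07 in males. In females 2 of the 36 were called lower (0.635% of all genes tested) and 2 higher (1.12%), by limma. The lower ones were Kcnk3, which overlaps Gm9899 (-0.78 for the member and -0.86 ± 0.15 for Kcnk3), and Acsf2 near Rsad1 (-0.54). Kcnk3 is a name that the rule leaves out with results known, so its calls are no support. The higher ones were Cry1, 3672 bp from Mterf2, at 3.03 ± 0.12, and Thpo near Clcn2, at 0.83. In males Kcnk3 was called lower (-0.75 ± 0.15, with 0.567% of all genes called lower) and Cry1 higher (3.08 ± 0.13, with 0.763% higher). Not called, but at -0.3 or lower in both sexes, were Tmem252 near Pgm5 (-0.73 and -0.60) and Tbc1d20 near Rbck1 (-0.32 and -0.31). Mterf2 and Cry1 lie side by side on the minus strand and stood on opposite sides, the repressor at 219 ± 11 normalised reads in control females and 1798 ± 218 in Bmal1 KO females.

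Relatives of 24 members, listed after the members were seen, give a view of their families and partners. Of 76 tested, limma called 5 higher and 1 lower in females, against 1.12% and 0.635% of all genes tested. In males it called 3 higher and 1 lower, against 0.763% and 0.567%. The relatives' medians were 0.02 and 0.01. Ncald, a calcium sensor related to Hpcal4, rose by 1.56 ± 0.17 (SE) in females and 0.78 ± 0.17 in males, while Hpcal4 stood at -1.30 and -1.07. Beside Lrrn2, at -0.63 in females, Lrrn4 rose by 1.61 ± 0.23 and Lrrn1 by 0.58 ± 0.15, and Lrrn3 fell by 0.50 on the log2 scale. Pgm1, of the phosphoglucomutase family of Pgm5, rose by 0.54 ± 0.10 and Ifrd1 by 0.51 ± 0.12 in females. Of the same family, Pgm2, Pgm2l1 and Pgm3 were not called in either sex. In males Mboat1 rose by 0.70 ± 0.15, Clcn3 rose by 0.24 ± 0.06, and Khk, which phosphorylates the fructose that Sord makes, fell by 0.38 on the log2 scale. The other steps around Gulo, namely Ugp2, Ugdh, Akr1a1 and Rgn and the vitamin C carriers Slc23a1 and Slc23a2, were not called in either sex. Akt1, Fgfr2, Ednrb, Gnaq and the Rbck1 partners Rnf31 and Sharpin were not called either. At -0.3 or lower in both sexes were Lefty2 (-0.96 and -1.06, mean 3.49 normalised reads) and Map1a (-0.36 and -0.83), neither called.

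**Figure D5:**
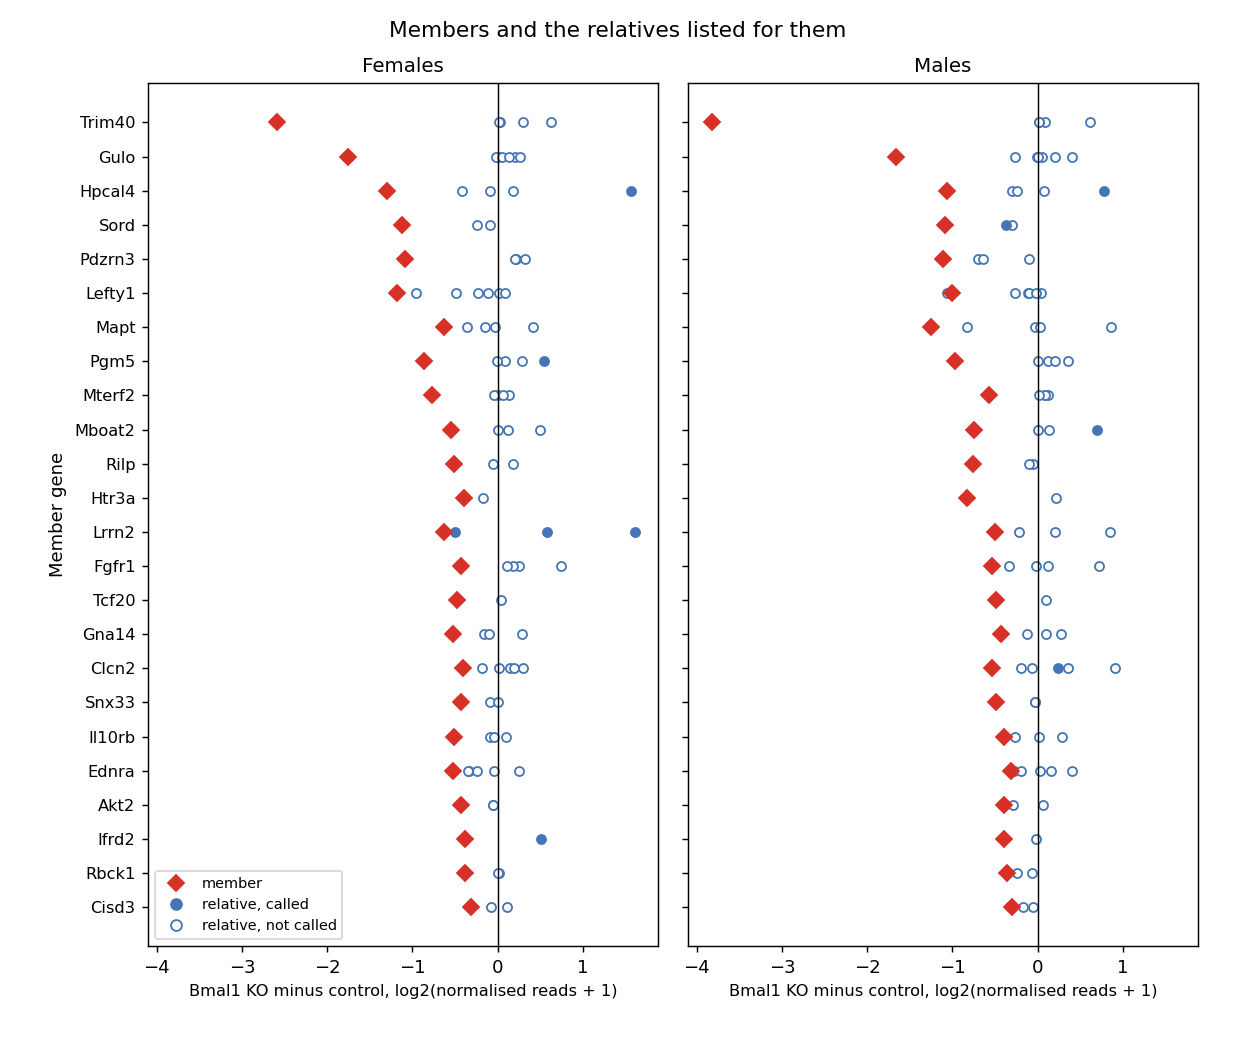
Bmal1 KO minus control difference of log2(normalised reads + 1) in females (left) and males (right) for 24 members (red diamonds) and their listed relatives (blue circles, filled where limma called them). Relatives scatter around 0, with medians of 0.02 and 0.01, and Ncald, at 1.56 and 0.78, stands opposite Hpcal4.

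Lists of pathway genes and cell type markers, 219 distinct genes tested, were followed beside the members. They do not place the members in a zone or cell type. Of 12 zona glomerulosa genes, limma called 3 lower in females (Shh at -1.79 ± 0.29 (SE), Kcnk3 at -0.86 ± 0.15 and Wnt4 at -0.77 ± 0.17) and 2 lower in males (Shh at -1.53 ± 0.30 and Kcnk3 at -0.75 ± 0.15), against 0.635% and 0.567% of all genes tested. Shh and Kcnk3 are names that the rule leaves out with results known, so their calls are no support. The list's median was -0.40 in females and -0.03 in males. Its summed level was 65814 to 77898 normalised reads in control females and 46164 to 53336 in Bmal1 KO females, apart, and 51603 to 79883 and 43667 to 64805 in males, overlapping. Shh and Kcnk3 are in both the median and the sum, so these are no support either. Kcnk3 alone averaged 29703 in control and 16281 in Bmal1 KO females, and 23917 and 14622 in males. What part the level of zona glomerulosa genes has in the lower counts of Clcn2, Gna14 or other members was not tested. Among genes of angiotensin, calcium and aldosterone control, the calcium pump Atp2b3 was called lower in both sexes (-0.93 ± 0.12 in females and -0.66 ± 0.13 in males).

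Other genes listed as targets of CLOCK and BMAL1 moved both ways. Whether each of them, Nfil3 included, is a direct target was not tested. Of 15, limma called 7 higher and 1 lower in females (1.12% and 0.635% of all genes tested) and 6 higher and 2 lower in males (0.763% and 0.567%). Among them Cry1, Per2, Cry2, Lonrf3 and Leo1 were higher in both sexes, Nfil3 in females, while Tspan4 was lower in both (-0.66 ± 0.12 and -0.49 ± 0.12) and Pim3 in males (-1.04 ± 0.13). Of the 8 clock output genes left out by name, 5 were called lower in each sex, and of the 10 adrenal genes left out 9 in females and 7 in males; these names were set with the results known and are no support. Of 13 ion and solute transport genes, Clic5 was higher (1.85 ± 0.11 and 0.85 ± 0.11) and Clic6 lower (-2.44 ± 0.60 and -3.10 ± 0.62) in both sexes.

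Among fatty acid oxidation genes limma called 0 of 12 in either sex, with 0 in females and 3 in males at an unadjusted p under 0.05, and edgeR and DESeq2 called 0. For fatty acid desaturation and elongation limma called 0 of 11 in either sex, with 1 and 3 at an unadjusted p under 0.05, edgeR 0, and DESeq2 0 in females and 2 in males. Mgll of the triglyceride list was called lower in males (-0.62 ± 0.15), Akap1 lower (-0.42 ± 0.08) and Pde8b higher (0.58 ± 0.12) of the cyclic AMP list in females, Herpud1 of the unfolded protein list lower in females (-0.37 ± 0.09) and Fah of tyrosine breakdown higher in females (0.65 ± 0.14). Of the X-zone, the inner cortex of young females, Cyp2f2, a name the rule leaves out, was lower (-2.82 ± 0.37) and Thrb higher (0.61 ± 0.11) in females. Cyp11a1 of the steroid cell list, also left out by the rule's names, was lower in males (-0.71 ± 0.16), and Star, called there too, had met the selection rule, so its call is no support.

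Markers of other cell types, in 11 lists with 74 genes tested, gave 1 limma call in females, the macrophage receptor gene Mrc1 (-0.59 ± 0.11), and 0 in males, where 1.75% and 1.33% of all genes were called in either direction. At an unadjusted p under 0.05 there were 15 and 6 genes (11.7% and 10.9% of all genes tested), edgeR called 1 and 0, and DESeq2 called 3 and 2. The medulla list had a median of -0.30 in females and -0.18 in males, with 4 of 12 genes at an unadjusted p under 0.05 in females, all lower, and 1 in males. Other lists had larger medians in females, among them adipocytes (-0.91, with 0.43 in males), red blood cells (0.64 and 0.25) and lymphocytes (0.52 and 0.17). The part of the medulla and of these lists in the members' lower counts was not tested.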

How the data were processed

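RNA of whole adrenals was extracted with Direct-zol and made into TruSeq libraries, per the labels' protocols. Per the submitters' processing notes, the tools were DESeq2, Salmon, featureCounts, MultiQC and FastQC and the builds GRCm38 and mm10; the sources used here do not give their roles, the aligner or the use of strand. The deposited signal is a read count per gene divided by 1 size factor per library: dividing each library by its step gave whole reads for 100% of values within 0.001 read. These values are called normalised reads. Depth was 13421985 to 26742820 reads, and precision is lowest for members under 100 reads.

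Since the deposited values are scaled, the main test was limma-trend (limma 3.58.1, R 4.3.3) on log2(value + 1), a scale that understates changes of low genes, for genes at 1 or more in at least 4 libraries, over all 4 groups, with a call at a Benjamini-Hochberg adjusted p under 0.05. Alternatives were edgeR 4.0.16 and DESeq2 1.42.0 on the recovered reads, other pseudocounts, filters and scalings, an age covariate, a replicate block and leaving out each library. Sex was averaged over genotypes. Errors are SD for group means and SE for differences. The members, lists and tests were chosen with earlier results of these data known; the relatives and the medulla slope were added after the data were seen. Members with values per library were the 20 with official names and the lowest mean difference, Trim40 to Fgfr1, and other genes are named where they were called or stood nearest a limit. Coordinates are GENCODE M21 (GRCm38), and sequences are RefSeq GRCm38.p6. Scripts were tested on simulated data. No 2 libraries agreed within sampling noise. Some genes of the lists are not reported here.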

Additional observations from a re-analysis of the deposited data

Results flagged for a closer look

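In 80 groups, from 20 members in 4 groups of libraries, 4 had 1 library far from the rest by Dixon's test, and chance gives about 1 in 20 groups. Gulo stood at 764.83 normalised reads in control male 4, the library of lowest depth, and between 349.53 and 430.47 in the other control males. Cdhr5 stood at 146.26 in control male 1 and between 231.93 and 278.54 in the others. mt-Tw stood at 35.91 in Bmal1 KO female 4 and between 27.6 and 29.9 in the others of that group. Lefty1 stood at 364.69 in control female 2 and between 255.88 and 280.93 in the others.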

How the results depend on the processing

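The rule gave 21 genes at a limit of -0.5, 39 with TMM scaling, 40 at a mean of 5, 31 at a mean of 100 and 48 with no limit on the difference. The rule was not applied again with a covariate. Among the 37 members, 36 stayed at -0.3 or lower in both sexes with age or the medulla level as a covariate. That count reuses the values that chose the members and is a description. Leaving out 1 library gave 37 to 55 genes; the 55, without control male 6, held 35 of the 37. Of the members' Bmal1 KO minus control differences under the alternatives, 2218 moved by less than the spread between libraries and 2 by more, both at a pseudocount of 5 (Trim40 in females, -1.71, and Speer9-ps1 in males, -0.67). Of the single sex differences under the alternatives, 1055 kept their call, 9 gained and 9 lost one, and no direction turned. Sex calls without 1 library were 15 to 17 higher in females and 14 to 15 in males, with Speer9-ps1 and Trim40 among the members counted. DESeq2 called 1 member, Lefty1, for the slope on Dbp. Over the lists, without those left out by name, 9 genes were lower and 11 higher in females and 7 lower and 7 higher in males. DESeq2 gave 14 lower in males. Without 1 library these counts were 5 to 9, 9 to 12, 3 to 9 and 5 to 8. The lowest, 5 in females, was without control female 4, and 3 or 4 lower in males were left without any 1 of control males 1 to 4 or Bmal1 KO males 1, 2 and 4.

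Same-numbered libraries deviated together by correlations of 0.04 to 0.294 in females and -0.122 to -0.012 in males, so the numbers were not taken to pair them. In females 4 of 5 and in males 0 of 4 correlated best with their own number. With the replicate block, 15 members, Speer9-ps1 among them, were called higher in females and 15, Trim40 among them, in males. For age 0 were called and for the medulla level 0. Over the lists 8 were lower and 12 higher in females and 6 lower and 9 higher in males.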

Other observations

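Turned round, with no names left out, the same rule found 94 genes higher in every Bmal1 KO library than in every control library of the same sex by 0.3 or more, against 46 lower.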
